A study of Mus musculus with 2 samples.

Results

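The cell cycle genes described here are 40 genes, 23 of mitosis, 16 of DNA replication and the tubulin-binding gene Stmn1, of 31053 genes in the count tables. They were chosen as a named list of symbols, and each symbol was matched to 1 row in both tables. All 40 had UMIs in both libraries. They were followed in cells that reached 1000 UMIs with a mitochondrial share of no more than 17%, to ask which immune cells of a mouse glioma were cycling, in which phase, and whether this differed between resident and infiltrating cells or between the libraries.

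The 2 libraries held CD45.2-positive, propidium iodide-negative cells of GL261 tumors, a mouse glioma line, 10 days after 100000 cells were injected into the brain. Each library pooled 3 male C57BL/6 mice, 8 to 12 weeks old at injection. One library came from WT mice and the other from heterozygous CD169-DTR mice, in which 1 copy of Siglec1, the gene of CD169, carries the diphtheria toxin receptor (DTR). Diphtheria toxin (DT) was given to both groups 1 day before and 4 days after the tumor cells, so the control group also had toxin and tumor, and DTR follows the expression of Siglec1, in every cell type that uses it. With 1 library per group there was no replicate, no test was made, and intervals cover counting error only, not the spread between mice.

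A dividing cell copies its DNA in S phase and separates the copies in mitosis. The MCM helicase (Mcm2 to Mcm7), the sliding clamp Pcna and the ligase Lig1 work at replication forks. Rrm2 and Tyms are enzymes that supply nucleotides, and E2f1 switches many of these genes on. Cdk1 with cyclins Ccna2, Ccnb1 and Ccnb2 starts mitosis, the kinases Plk1, Aurka, Aurkb and Bub1 steer it, the motors Kif11, Kif23 and Cenpe move and part the chromosomes, Top2a untangles them, and Ube2c marks cyclins for destruction at its end. Mki67 coats mitotic chromosomes and its protein is the common marker of dividing cells. Microglia, the resident macrophages of the brain, renew themselves locally by division, whereas most macrophages of a tumor arise from blood monocytes.

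The libraries held 101808996 (WT) and 84065489 (CD169-DTR) UMIs, of which 10107 and 7604 cells were kept, with a median of 7776 and 8099.5 UMIs a cell. Clusters were made with the members and other listed cell cycle genes kept out, but not every gene of the cycle was listed. They were named from their markers alone, so that microglia stands here for microglia-like cells, and likewise for the others. Microglia were 4457 cells in WT and 4952 in CD169-DTR, macrophages 2290 and 743, and T cells 470 and 215. Macrophages were deeper in CD169-DTR, with a median of 11907 UMIs against 7247. Siglec1 in macrophages was 37.8 CPM (UMIs per 1e+06 UMIs of the class) in WT and 12 CPM in CD169-DTR, the direction the labels give. In microglia it was also lower in CD169-DTR, at 5.85 CPM against 19.5 CPM in WT. A cluster of 327 and 476 cells led by hemoglobin genes, which also held microglial markers, stayed unnamed, and 21 cell barcodes occurred in both libraries, 2 of them in cycling cells.

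A cell was called cycling when, after thinning to 3000 UMIs, it held at least 3 UMIs from at least 2 mitotic members, or at least 5 UMIs from at least 3 replication members. Microglia had the highest share of the 9 classes plotted, in both libraries, and 10 and 13 cells with astroglial or glioma markers, of which 3 and 4 were cycling, were too few to plot. Of 4279 WT microglia 736 were cycling, 17.2% (95% interval 16.1 to 18.4%), and of 4809 CD169-DTR microglia 846, 17.6% (16.5 to 18.7%). WT over CD169-DTR, the log2 ratio was -0.03 (-0.16 to 0.10), so the shares of the libraries differed by less than their counting error. Before thinning the shares were 30.2% and 29.7%, and thinning left out 178 and 143 shallower microglia. The call is a range and not a type: 24 and 34 cycling microglia sat on the mitotic threshold, 68 and 69 on the replication threshold, and 154 and 165 others were 1 UMI short.

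**Figure D1:**
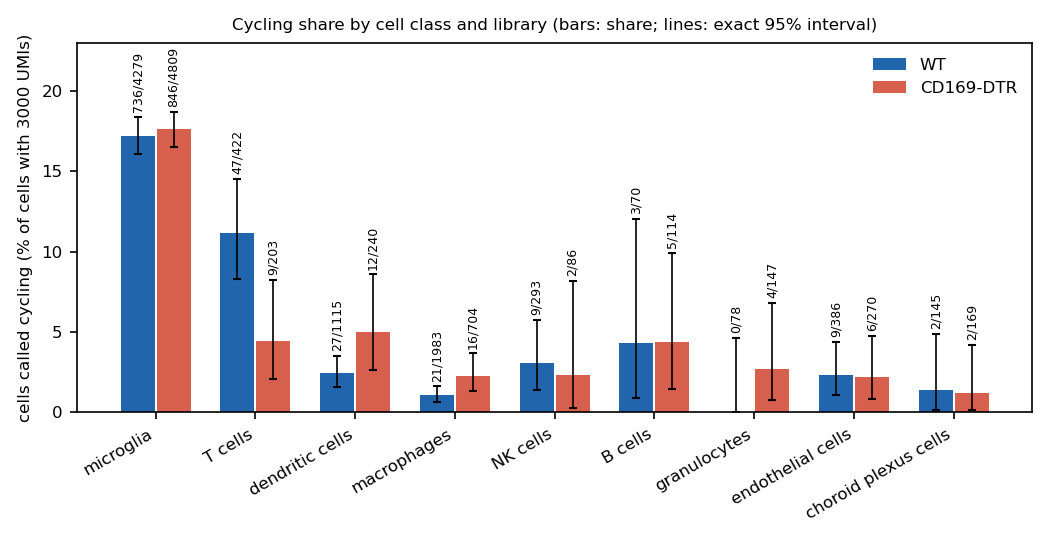
Percent of cells called cycling (vertical axis, of cells with at least 3000 UMIs) by cell class in WT (blue) and CD169-DTR (red), 1 library each. Lines are exact 95% intervals, and the fractions above them give cycling cells over all cells. Microglia stand at 17.2% and 17.6%, T cells at 11.1% and 4.43%, and macrophages near the choroid plexus cells.

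The macrophages are taken here as infiltrating cells, but their origin was not measured. The markers that named them joined Ly6c2 and Ccr2 with Mrc1, Pf4, Cd163 and Lyve1. Macrophages were rarely called cycling. The share was 1.06% (0.657 to 1.61%, 21 of 1983 cells) in WT and 2.27% (1.30 to 3.66%, 16 of 704) in CD169-DTR. Choroid plexus cells, an epithelium of the brain that hardly divides, were called at 1.38% (0.167 to 4.89%, 2 of 145) and 1.18% (0.144 to 4.21%, 2 of 169), at a median of 14550 and 12530 UMIs. The WT macrophage share lay below this background and the CD169-DTR share above it, both with intervals that overlap, so neither was separated from it. The sum of 64 mitotic genes that the call did not use was 3444 CPM in cycling and 1201 CPM in other WT macrophages. In CD169-DTR it was 5333 and 1124 CPM. Whether the called macrophages divided was not tested. Before thinning the macrophage shares were 5.76% and 15.7%, at unequal depth, and thinning left out 307 WT and 39 CD169-DTR macrophages. The pooled share joins unlike clusters. In the cluster led by Gpnmb, Fabp5 and Ms4a7 it was 2.05% (16 of 781) in WT and 2.34% (7 of 299) in CD169-DTR, and in the one led by Clec4e, Ly6c2 and F10 it was 0.485% (5 of 1030) and 2.59% (7 of 270). The first cluster thus held 16 of the 21 cycling macrophages in WT and 7 of the 16 in CD169-DTR.

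The called share of microglia was 16.2 times that of macrophages in WT, a log2 ratio of 4.02 (3.40 to 4.64), and 7.74 times in CD169-DTR, 2.95 (2.25 to 3.66). Since neither macrophage share was separated from that of choroid plexus cells, these ratios compare calls and do not measure how much less macrophages divided. The 21 and 16 cycling macrophages carried microglial markers at 7460 and 4813 CPM, against 1717 and 2253 CPM in the other macrophages of the same libraries, with none of the 12 microglial markers at 0. Their 20 macrophage markers summed to 13730 and 17938 CPM, against 22410 and 22218 CPM. With the 8% of cells with the highest doublet scores removed, the shares were 0.496% and 1.59%, and the microglia over macrophage log2 ratios were 5.02 and 3.43.

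Of all cycling cells, 83.9% (81.3 to 86.3%) were microglia in WT and 92.6% (90.7 to 94.2%) in CD169-DTR, while microglia were 46.2% and 66.4% of the cells. T cells were next in WT, with 5.36% of cycling cells, and were 0.985% in CD169-DTR. Over all cells the cycling share of WT was 9.47% (8.89 to 10.1%), and that of CD169-DTR 12.6% (11.9 to 13.4%). The libraries thus differed over all cells, with more microglia in CD169-DTR, while within microglia the shares differed by less than counting error.

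The share of microglia called cycling differed between microglial clusters. The cluster led by P2ry12, Slc2a5, Gpr34 and Sox4, among them the homeostatic genes P2ry12 and Gpr34, had 1.88% (1.13 to 2.91%) cycling cells in WT and 1.61% (1.01 to 2.42%) in CD169-DTR. The cluster led by Lpl, Cst7, C4b and Timp2 had 16% (13.3 to 19.0%) and 17.8% (15.2 to 20.7%), and the one led by Cxcl13, Cxcl10, Ccl12 and Ifnb1 had 12% (9.50 to 15.0%) and 17.8% (14.5 to 21.5%). These clusters were also deeper, at a median of 10400 and 8940 UMIs in WT against 5436, although each cell was thinned to the same depth. With the listed cell cycle genes kept out of the clustering, 442 WT and 469 CD169-DTR cells still formed a cluster led by Mki67, Top2a, Cenpf and Ube2c. Cycle genes on no list, such as Aspm and Spag5, had not been kept out. Of the thinned cells of this cluster 96.3% and 98.1% were called. It held 56.9% of cycling microglia in WT and 54.0% in CD169-DTR, so 43.1% and 46.0% lay in other clusters, and 56.5% and 48.3% of these passed the replication threshold alone. The state of the cells in the cluster led by Mki67 was not assigned. The shares of the other clusters leave these cells out and do not show how division was spread over states.

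The phase of a cycling cell was read from which threshold it passed. Of cycling WT microglia 26.8% (23.6 to 30.1%) passed the replication threshold alone, 28.5% (25.3 to 31.9%) both, and 44.7% (41.1 to 48.4%) the mitotic threshold alone. In CD169-DTR microglia the same shares were 24.6% (21.7 to 27.6%), 27.7% (24.7 to 30.8%) and 47.8% (44.3 to 51.2%). All 3 pairs of intervals overlapped between the libraries. These shares are set by the thresholds: at 1000 UMIs a cell the mitotic-only share was 88.5% and 88.6%, and at 5000 UMIs 31.4% and 35.8%.

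Genes that the call did not use followed the same order. The 39 other replication genes summed to 497 CPM in WT microglia that were not called, 2311 CPM in those of replication alone, 4138 CPM in those that passed both and 1229 CPM in those of mitosis alone. The 64 other mitotic genes were higher at each step of that order, at 766, 1641, 6686 and 7848 CPM. In CD169-DTR the other replication genes stood at 468, 2474, 3769 and 1148 CPM and the other mitotic genes at 786, 1724, 7303 and 8053 CPM. Stmn1, which encodes stathmin, a protein that takes microtubules apart, was counted in neither threshold. It stood at 57.8 CPM in uncalled WT microglia, 296 CPM with replication alone, 1005 CPM with both and 951 CPM with mitosis alone.

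**Figure D2:**
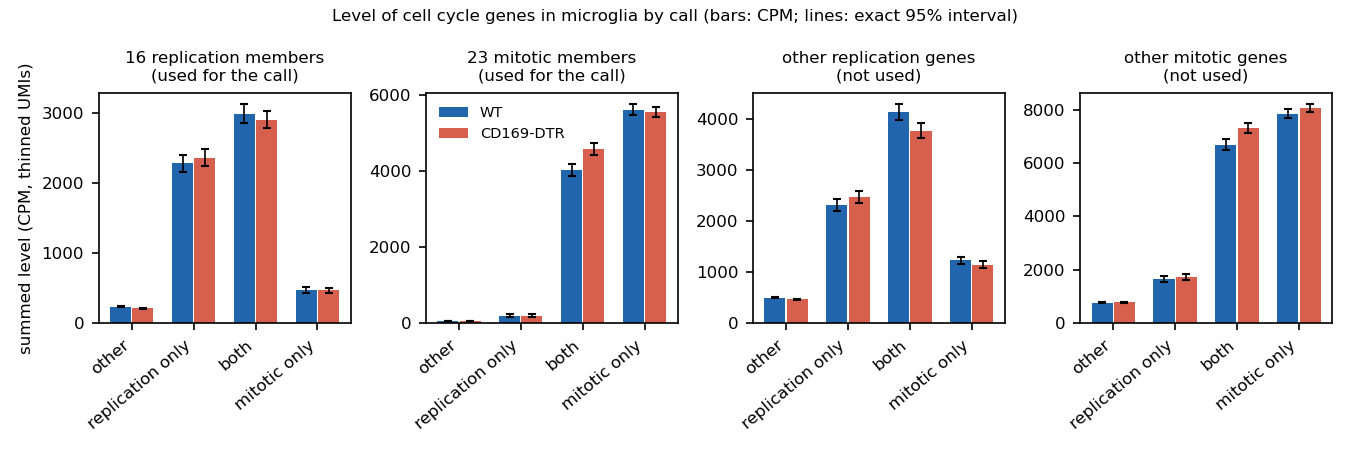
Summed level in CPM of thinned UMIs (vertical axis) of 4 gene lists in microglia that were not called, or passed the replication threshold only, both or the mitotic threshold only, in WT (blue) and CD169-DTR (red). Lines are exact 95% intervals. The lists on the right did not enter the call, and the other replication genes peak at both thresholds (4138 and 3769 CPM) while the other mitotic genes are highest at the mitotic threshold (7848 and 8053 CPM).

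Cycling T cells, the largest infiltrating group among WT cycling cells, had a similar mixture in WT, with 12 of 47 cells of replication alone, 15 of both and 20 of mitosis alone. In CD169-DTR 4, 3 and 2 of 9 cells fell into these groups. The cycling macrophages of WT were 3, 3 and 15 cells and those of CD169-DTR 1, 5 and 10, too few to order the phases.

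Gene by gene, in sums of unthinned UMIs, the resident microglia stood above the infiltrating macrophages, but not above all infiltrating cells. In WT, T cells had the highest level of the 9 classes for 23 of 40 members and microglia for 11, and the members summed to 1999 CPM in T cells and 1691 CPM in microglia. Deep cells weigh more in such sums: cycling WT T cells had a median of 16039 UMIs against 6607 in other WT T cells. In WT microglia these medians were 10846.5 and 7626 UMIs. Among WT T cells, 5 cells held 40.1% of the mitotic UMIs. Thinned to equal depth, the called share of WT was higher in microglia, at 17.2% against 11.1% in T cells. In CD169-DTR microglia had the highest level for 29 members and T cells for 1, with sums of 1857 and 629 CPM. All 40 members were higher in microglia than in macrophages in both libraries, 39 of 40 by at least 1.5-fold in WT and 38 of 40 in CD169-DTR, and none was lower by that fold. Of all genes with at least 20 UMIs, 40.2% were past 1.5-fold higher in WT microglia and 18.2% lower, and in CD169-DTR 40.5% and 15%. The median log2 ratio of the members was 3.29 in WT, beside 0.35 over all genes, and 2.49 in CD169-DTR, beside 0.37.

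Among mitotic members, Mki67 on chromosome 7 (chr7:135689784-135716361, mm10, minus strand) had 115 CPM in WT microglia and 14.8 CPM in WT macrophages, and 132 and 18.8 CPM in CD169-DTR. Top2a (chr11:98992943-99024189, minus strand) had 96.5 and 8.65 CPM in WT, and 97.3 and 13.3 CPM in CD169-DTR. For both genes the microglia of each library were several-fold above the macrophages of either library. The 23 mitotic members ranged in their log2 ratio from 0.68, for Kif23, to 4.43 in WT, with a median of 3.55. In CD169-DTR it ranged from 1.14 to 3.85, with a median of 2.68.

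The replication members were less unequal. Pcna (chr2:132249162-132253314, minus strand), which also serves DNA repair, had 77.5 CPM in WT microglia and 61.1 CPM in WT macrophages, and 68.9 and 56.8 CPM in CD169-DTR. Its log2 ratios, 0.34 and 0.28, were the lowest of the 16. Mcm5 (chr8:75109569-75128439, plus strand), a subunit of the MCM helicase, had 39.6 and 4.86 CPM in WT and 36.1 and 8.22 CPM in CD169-DTR. The medians of the replication members were 2.25 in WT and 1.69 in CD169-DTR. Stmn1 (chr4:134468320-134473843, plus strand) had 237 and 24.3 CPM in WT and 261 and 46.3 CPM in CD169-DTR.

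**Figure D3:**
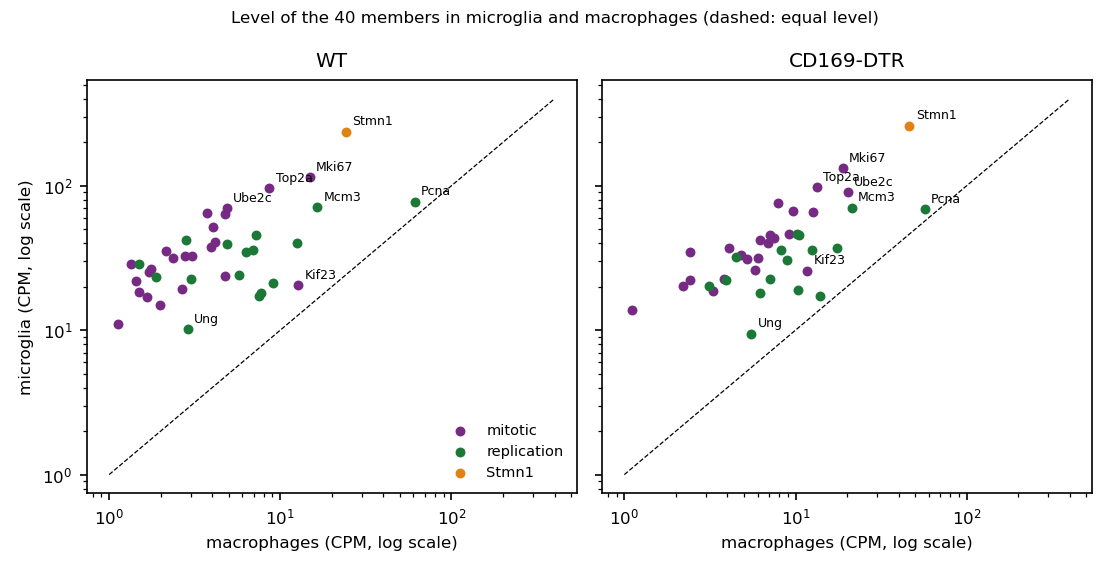
Level of each of the 40 members in macrophages (horizontal axis, CPM, log scale) and microglia (vertical axis, CPM, log scale) of WT (left) and CD169-DTR (right), 1 point a gene, with mitotic members in purple, replication members in green and Stmn1 in orange. All points lie above the dashed line of equal level, and Pcna, at 61.1 and 77.5 CPM in WT, lies nearest to it.

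The level of free RNA bears on these values. In barcodes of 10 to 100 UMIs, taken here as free RNA, the mitotic members summed to 469 CPM in WT and 859 CPM in CD169-DTR, and the replication members to 353 and 417 CPM. Macrophages were below this, with 92.0 and 172 CPM of the mitotic and 158 and 200 CPM of the replication members. Microglia were above it, with 901 and 1064 CPM of the mitotic and 552 and 532 CPM of the replication members. The mitotic UMIs of microglia sat in few cells: 94.2% and 94.9% were in cycling cells, and 62.2% and 57.2% of microglia had none.

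The promoters of mitotic and replication members were searched for known motifs. RefSeq promoters (GRCm38.p6, from 250 bases before to 50 after the start) were matched for 34 of 40 members, some with more than 1 start. The motifs, known from cell cycle promoters, were searched on both strands: the cell cycle homology region (CHR, TTTGAA or TTCGAA), the CCAAT box, and E2F sites (TTTGGCGC, TTTCGCGC, TTTCCCGC or TTTGCCGC). A CHR was found in 16 of 19 mitotic genes and in 2 of 15 replication genes, and in 21.7% of all 27025 genes with a promoter. CHR and CCAAT together were found in 15 of 19 mitotic genes, 2 of 15 replication genes and 9.65% of all genes. E2F letters were found in 1 of 19 mitotic genes (Cdk1), 9 of 15 replication genes and 2.6% of all. CCAAT alone was common, in 17 of 19, 10 of 15 and 41.1%. A match is a description of letters and no evidence of binding.

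Shown are the promoters of the 2 mitotic and the 2 replication members with most UMIs that held a motif, each 5′ to 3′ on the gene's strand with the matches in capitals and no overlap between matches. Mki67 (chr7:135716330-135716629, minus strand) has 2 CHR and 3 CCAAT matches, and Top2a (chr11:99024140-99024439, minus strand) has 4 CHR and 6 CCAAT matches. Pcna (chr2:132253131-132253430, minus strand) has 1 CCAAT match and no E2F match in these letters, and Mcm3 (chr1:20820263-20820562, minus strand), another MCM subunit, has 2 E2F and 3 CCAAT matches.
Mki67: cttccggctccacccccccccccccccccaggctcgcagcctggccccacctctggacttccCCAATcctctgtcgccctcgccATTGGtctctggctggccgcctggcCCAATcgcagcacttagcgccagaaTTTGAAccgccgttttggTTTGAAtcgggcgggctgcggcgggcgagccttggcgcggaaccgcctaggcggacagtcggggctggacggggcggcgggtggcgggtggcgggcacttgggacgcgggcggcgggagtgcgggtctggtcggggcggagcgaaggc
Top2a: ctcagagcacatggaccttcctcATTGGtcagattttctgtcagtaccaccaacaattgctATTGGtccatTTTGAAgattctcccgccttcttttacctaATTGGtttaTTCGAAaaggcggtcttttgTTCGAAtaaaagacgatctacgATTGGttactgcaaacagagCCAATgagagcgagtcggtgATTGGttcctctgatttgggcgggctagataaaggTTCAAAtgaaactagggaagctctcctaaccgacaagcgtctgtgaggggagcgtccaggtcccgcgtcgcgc
Pcna: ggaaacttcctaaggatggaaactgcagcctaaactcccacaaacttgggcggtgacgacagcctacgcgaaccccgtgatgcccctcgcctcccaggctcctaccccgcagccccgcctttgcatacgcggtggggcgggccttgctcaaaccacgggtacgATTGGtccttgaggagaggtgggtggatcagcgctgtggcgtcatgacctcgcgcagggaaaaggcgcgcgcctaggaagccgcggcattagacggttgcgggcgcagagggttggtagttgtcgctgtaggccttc
Mcm3: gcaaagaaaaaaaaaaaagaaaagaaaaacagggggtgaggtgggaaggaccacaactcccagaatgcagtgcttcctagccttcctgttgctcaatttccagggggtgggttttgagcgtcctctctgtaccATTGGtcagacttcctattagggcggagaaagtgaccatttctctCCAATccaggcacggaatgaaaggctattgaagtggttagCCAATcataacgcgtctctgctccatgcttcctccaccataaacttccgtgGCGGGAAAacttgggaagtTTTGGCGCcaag

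Between the libraries, the members of microglia differed little. No member of 40 was past 1.5-fold in either direction, while 3.51% of all 13613 genes were past it higher in WT and 3.98% lower. Within that range the roles parted: all 23 mitotic members were lower in WT, with a median log2 ratio of -0.29, and 12 of 16 replication members were higher, with a median of 0.08, beside -0.04 over all genes. The same parting was seen in genes outside the list, where 58 of 64 other mitotic genes were lower in WT (median -0.22) and 29 of 39 other replication genes were higher (median 0.07). The UMIs of these genes come largely from the same cycling cells, so the genes are not independent of each other and their intervals are too narrow for a statement about mice.

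Of the mitotic members with most UMIs, Mki67 stood at 115 CPM (4741 UMIs) in WT and 132 CPM (6500 UMIs) in CD169-DTR, a log2 ratio of -0.20 (-0.25 to -0.14). Ube2c, at 70.4 and 90.4 CPM, had -0.36 (-0.43 to -0.29). Cenpf, a kinetochore protein, at 63.9 and 76.4 CPM, had -0.26 (-0.33 to -0.19). Top2a and Cdk1 were level within counting error, with -0.01 (-0.07 to 0.05) and -0.05 (-0.13 to 0.02). The lowest ratios were those of Ccnb2, cyclin B2, at 31.7 and 43.7 CPM (-0.46, -0.56 to -0.36), of the spindle assembly factor Tpx2, at 23.6 and 31.2 CPM (-0.40), and of the motor Cenpe, at 32.7 and 42.0 CPM (-0.36).

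Among replication members, Lig1 had the highest ratio, at 34.6 CPM in WT and 30.5 CPM in CD169-DTR (0.18, 0.08 to 0.29). Hells, a chromatin remodeler of replicating cells, followed with 22.7 and 20.1 CPM (0.17), and Pcna with 77.5 and 68.9 CPM (0.17, 0.10 to 0.24). Mcm5 was at 39.6 and 36.1 CPM (0.13, 0.03 to 0.23) and Mcm6 at 39.8 and 36.9 CPM (0.11). Mcm3, at 71.4 and 70.4 CPM, and the thymidylate synthase Tyms, at 45.9 and 46.3 CPM, were level within counting error. Pclaf, which binds Pcna, was lower in WT, at 42.3 against 45.9 CPM (-0.12, -0.21 to -0.03, but 0.17 without the cycling cells), as was Stmn1, at 237 against 261 CPM (-0.14, -0.17 to -0.10).

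The number of cycling cells and their content can be given apart. Microglia that passed the mitotic threshold were 12.6% in WT and 13.3% in CD169-DTR. Within cycling microglia, thinned to equal depth, the 23 mitotic members had a median log2 ratio of -0.08, from -0.44 to 0.25, and the 16 replication members of 0.08, from -0.24 to 0.30. Cycling microglia were deeper in CD169-DTR, with a median of 12435.5 UMIs against 10846.5, and deep cells weigh more in a sum.

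**Figure D4:**
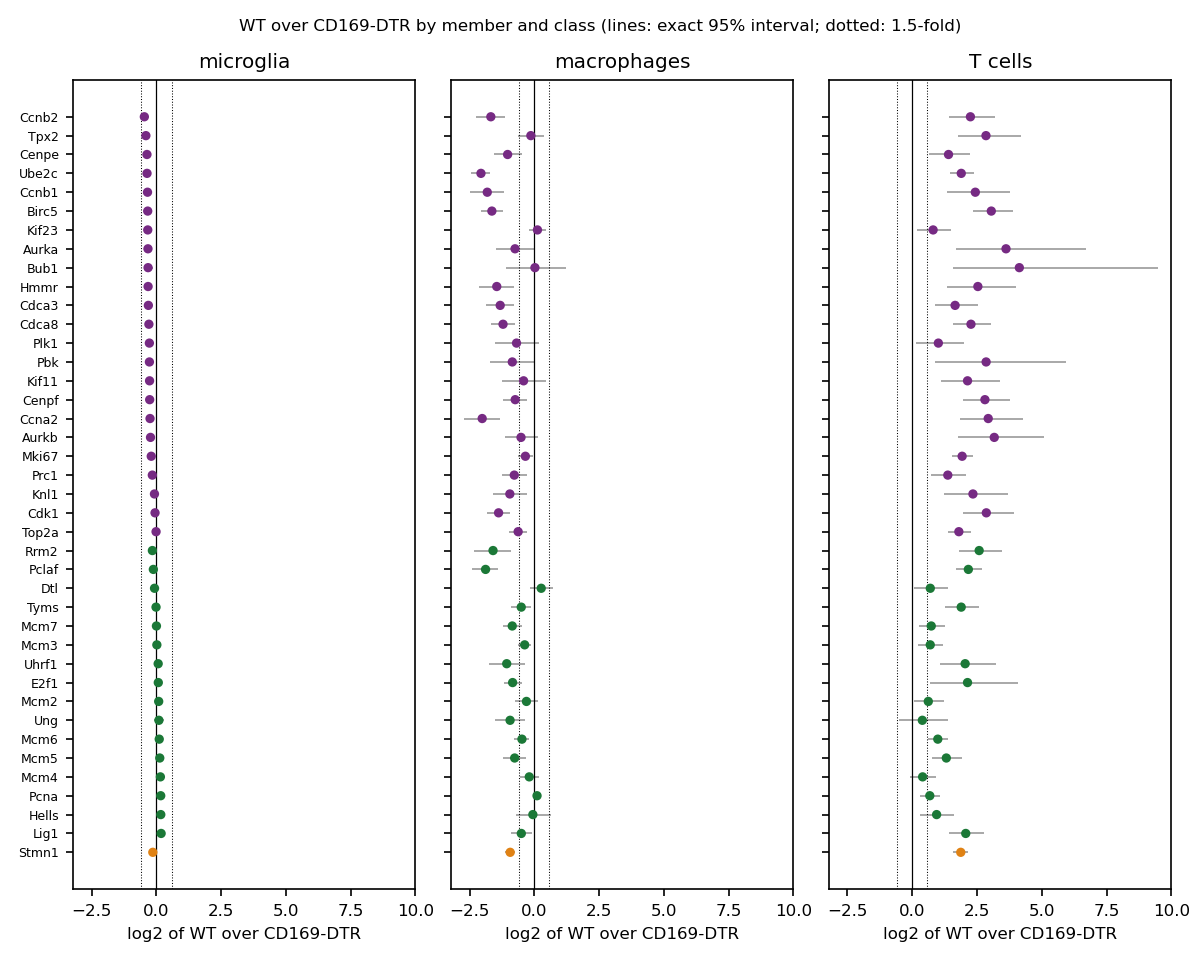
Log2 ratio of WT over CD169-DTR (horizontal axis) for each of the 40 members (rows, ordered by role and by the ratio in microglia) in microglia, macrophages and T cells, with exact 95% intervals as lines, mitotic members in purple, replication members in green and Stmn1 in orange. Dotted lines mark 1.5-fold. Points in microglia stay between -0.46 and 0.18, most in macrophages lie to the left of 0, and all 40 in T cells lie to the right.

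In macrophages 25 of 40 members were past 1.5-fold lower in WT and none higher, where 7.9% of 11816 genes were past it lower and 8.4% higher. They were 17 of 23 mitotic members, 7 of 16 replication members and Stmn1, and the median of all members was -0.77, beside -0.05 over all genes. Of the genes outside the list, 34 of 60 other mitotic genes with 20 UMIs were past 1.5-fold lower in WT and 4 higher.

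The largest differences were those of Ube2c, with 91 UMIs (4.86 CPM) in WT and 202 UMIs (20.2 CPM) in CD169-DTR, a log2 ratio of -2.06 (-2.43 to -1.70), of cyclin A2 (Ccna2), at 1.44 and 5.81 CPM (-2.01, -2.73 to -1.33), and of Pclaf, at 2.83 and 10.4 CPM (-1.88, -2.39 to -1.39). The survivin gene Birc5, a part of the chromosomal passenger complex, was at 4.06 and 12.6 CPM (-1.64). Top2a was at 8.65 and 13.3 CPM (-0.62) and Mki67 at 14.8 and 18.8 CPM (-0.34, -0.62 to -0.07), a direction that turned without the cycling cells (0.25). Among the replication members with most UMIs, Mcm3 was at 16.5 and 21.4 CPM (-0.37, but 0.060 as the mean of thinned cells), Mcm6 at 12.6 and 17.5 CPM (-0.48) and E2f1 at 7.74 and 13.8 CPM (-0.84), while Mcm4, at 9.02 and 10.3 CPM, had an interval that covers 0. Mcm5 was at 4.86 and 8.22 CPM (-0.76) and Stmn1 at 24.3 and 46.3 CPM (-0.93).

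The 3 highest ratios were level within counting error. They were those of Dtl, which marks licensing factors for destruction in S phase, at 7.47 and 6.21 CPM (0.27, -0.17 to 0.72), of Kif23, at 12.8 and 11.7 CPM (0.12), and of Pcna, at 61.1 and 56.8 CPM (0.11, -0.04 to 0.25).

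The macrophage sums rested on few cells: 5 cells held 29.1% of the mitotic UMIs in WT and 47.2% in CD169-DTR. With each cell thinned to 3000 UMIs, 12 members stayed past 1.5-fold lower, and without the cycling cells 10, while 5 were then higher. Members below the minimum UMIs of a gene at a setting were not counted, so a lower count can be a loss of UMIs. No share of all genes at these settings is given, so these counts cannot be set against other genes. The mitotic members of free RNA and the microglial markers of uncalled macrophages were both higher in CD169-DTR, as were the members, and their part in the result was not tested. The cycling share had a log2 ratio of -1.10 (-2.03 to -0.17) in macrophages. Its interval covered 0 in 5 of 15 alternative processings, another random thinning among them (-0.85, -1.75 to 0.05).

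T cells went the other way. Of 422 WT T cells 47 were cycling, 11.1% (8.30 to 14.5%), and of 203 CD169-DTR T cells 9, 4.43% (2.05 to 8.25%), a log2 ratio of 1.33 (0.33 to 2.33). The direction was the same in T cells with a Cd8a or Cd8b1 UMI, with 14.9% (25 of 168) and 5.75% (5 of 87), and in those with a Cd4 UMI and no Cd8a or Cd8b1 UMI, with 15.3% (13 of 85) and 6.38% (3 of 47). Of T cells with a UMI of Foxp3, the regulatory T cell factor, 13 of 46 (28.3%, 16 to 43.5%) were cycling in WT and 1 of 14 (7.14%, 0.181 to 33.9%) in CD169-DTR, with intervals that overlap. These subsets were picked by UMIs before thinning, which favors deep cells, and cycling T cells of WT were deeper. In the Foxp3 subset of WT the median was 27218 UMIs in cycling and 7861 in other cells, so its share is no rate of regulatory T cells. Before thinning the T cell shares were 22.6% and 14%, and thinning left out 48 and 12 T cells.

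All 40 members were higher in WT T cells and 38 were past 1.5-fold, where 16.1% of 9849 genes were past it higher and 5.54% lower. The median was 1.98, beside 0.11 over all genes. Mki67 had 139 CPM (555 UMIs) in WT and 36.6 CPM (57 UMIs) in CD169-DTR (1.93, 1.53 to 2.35), Top2a 110 and 31.5 CPM (1.80), and Stmn1 257 and 70.1 CPM (1.87). The replication members differed less, with Mcm5 at 46.4 and 18.6 CPM (1.32, 0.75 to 1.93) and Pcna at 73.0 and 45.6 CPM (0.68, 0.30 to 1.07). The medians were 2.34 over the mitotic and 0.96 over the replication members. These sums too rested on few cells: 1 cell held 39.9% of the mitotic UMIs of CD169-DTR T cells and 1 cell 12.5% of those of WT. With every cell thinned to 3000 UMIs, 15 members stayed past 1.5-fold, all higher in WT, and without the 5 cells of each library with most mitotic UMIs 37 did. Some members, such as Pbk, fell below the minimum of 20 UMIs after thinning and were not counted, so the lower count is in part a loss of UMIs. The share of all genes past the fold was not computed at these settings. In cycling WT T cells some genes of myeloid cells were higher than in the other T cells. Past 1.5-fold higher were 6 of 7 homeostatic microglial genes and all 5 MHC class II genes with 50 UMIs. Of 8 growth receptor genes 4 were past it higher and 1 lower, and of 9 disease-associated genes 4 and 2. Of all 3320 genes 17.8% were past it higher and 16% lower. The 20 macrophage markers were nearly level, at 2603 CPM in cycling and 2429 CPM in other WT T cells. The 13 granulocyte markers were lower in cycling cells, at 14.2 against 190 CPM. The 12 microglial markers summed to 2780 CPM in cycling and 1008 CPM in other WT T cells, with none at 0, and the 17 T cell markers to 6397 and 6916 CPM. With T cells that hold a P2ry12 UMI removed the shares were 8.94% and 2.94%, and with the highest doublet scores removed 7.26% and 3.33% (1.12, -0.13 to 2.38).

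Among the other infiltrating cells, NK cells called cycling were 9 of 293 (3.07%, 1.41 to 5.75%) in WT and 2 of 86 (2.33%, 0.283 to 8.15%) in CD169-DTR, and the log2 ratio, 0.40 (-1.78 to 2.58), was below 0 in 5 of 14 alternative processings. The summed mitotic members of NK cells lay in the opposite direction to the share, at 213 CPM in WT and 543 CPM in CD169-DTR (-1.35), and 1 cell held 27.1% of these UMIs in WT and 1 cell 56.0% in CD169-DTR. Dendritic cells were called at 2.42% (27 of 1115) and 5.00% (12 of 240), a ratio of -1.05 (-2.01 to -0.09). That ratio was not rerun under the alternative processings, and 5 cells held 34.3% of the mitotic UMIs of dendritic cells in WT and 62.7% in CD169-DTR. B cells were called at 4.29% (3 of 70) and 4.39% (5 of 114). No granulocyte of 78 was called in WT, which allows a share of up to 3.85%, and 4 of 147 (2.72%) were in CD169-DTR.

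Cycling microglia differed from the other microglia of their library in genes outside the cycle. Of all genes with 50 thinned UMIs, 13.8% were past 1.5-fold higher in cycling WT microglia and 7.62% lower, and in CD169-DTR 14.3% and 10.2%. Of 10 homeostatic genes 3 in WT and 4 in CD169-DTR were past 1.5-fold lower in cycling cells and none higher. P2ry12, the ADP receptor of resting microglia, had log2 ratios of cycling over other cells of -0.91 in WT and -1.24 in CD169-DTR, Gpr34 of -0.91 and -1.09, and P2ry13 of -0.74 and -0.82, whereas Tmem119 (-0.20 and -0.36) and Sall1 (-0.19 and -0.41) were nearer to 0. Summed over the list, these genes stood at 10788 CPM in cycling and 13815 CPM in other WT microglia, and at 10546 and 14885 CPM in CD169-DTR. In clusters at resolution 0.5, where most homeostatic microglia fell into an unnamed cluster led by hemoglobin genes, the summed ratio turned from -0.36 to 0.085 in WT and from -0.50 to -0.01 in CD169-DTR.

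All 12 immediate early genes, which respond within minutes to stimulation and to tissue digestion, were lower in cycling microglia of both libraries. Of these, 5 in WT and 8 in CD169-DTR were past 1.5-fold, beside 7.62% and 10.2% of all genes, with Junb at -0.71 and -0.79, Jund at -0.68 and -0.83, and Fos at -0.39 and -0.62. Of 20 interferon-induced genes 3 were past 1.5-fold higher in WT, near the 13.8% of all genes, and 5 in CD169-DTR, beside 14.3%, and none was lower by that fold. The chemokine gene Cxcl10 had 0.93 and 1.13, Ifi27l2a 0.67 and 0.96 and Isg15 0.60 and 0.83. The 15 disease-associated genes had no common direction, with Lpl at 0.40 and 0.83 and Apoe at -0.94 and -0.55. Of the MHC class II genes with 50 UMIs none in WT and 1 of 6 in CD169-DTR, H2-Aa at -0.75, was past 1.5-fold, and in WT H2-Aa was at 0.03. The median over all genes was 0.04 and 0.02.

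**Figure D5:**
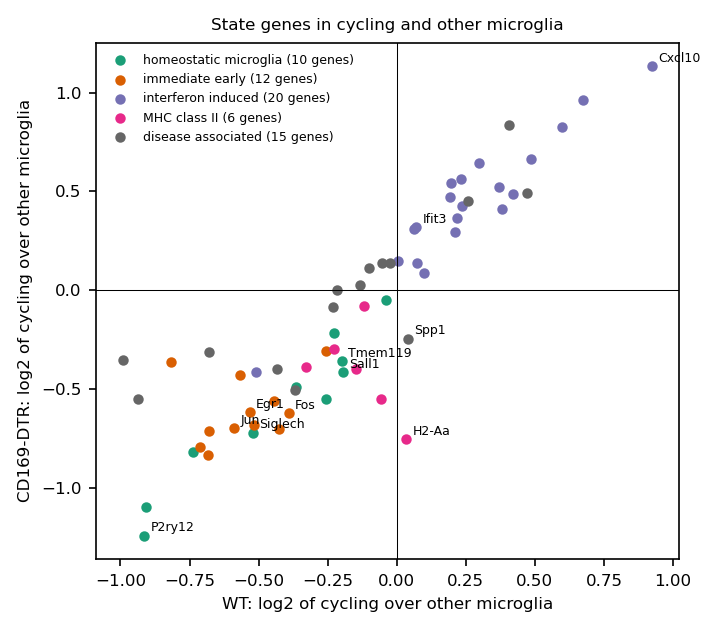
Log2 ratio of cycling over other microglia, from thinned UMIs, in WT (horizontal axis) and CD169-DTR (vertical axis), 1 point a gene, colored by gene list, for genes with at least 50 UMIs. Immediate early genes lie at the lower left, with Junb at -0.71 and -0.79, and Cxcl10, at 0.93 and 1.13, at the upper right.

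Regulators of the G1 phase were mixed. Of 22 such genes with enough UMIs in WT 10 were past 1.5-fold higher in cycling microglia and 3 lower, beside 13.8% and 7.62% of all genes. Of 23 in CD169-DTR 9 were higher and 2 lower, beside 14.3% and 10.2%. Cdkn2c, an inhibitor of Cdk4 and Cdk6, was at 3.98 in WT and 3.84 in CD169-DTR, E2f2 at 3.06 and 2.71, and the p53 target Cdkn1a at 0.82 and 1.15, while the antiproliferative gene Btg2 was at -0.70 and -0.52 and Cdkn1c at -1.51 and -1.23.

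Of the genes on none of the lists, the 10 with the highest ratio in WT microglia were Aspm, Neil3, Hist1h1b, Spag5, Ankle1, Arhgef39, Shcbp1, Lockd, Ccnf and Kifc1. Aspm, a spindle pole protein, had 153 thinned UMIs in 736 cycling cells and 4 in 3543 others, a log2 ratio of 7.52 (6.14 to 9.42), and 162 and 6 UMIs in CD169-DTR, 6.98 (5.83 to 8.45). The ratios of the others ran in WT from 5.55 to 6.64, and those of CD169-DTR from 4.35 to 7.80. Neil3 is a DNA repair enzyme, Hist1h1b a linker histone, Spag5 and Kifc1 are spindle proteins, and Ccnf is cyclin F.

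The same ranking in macrophages gave Ccdc34, Cadm1, Gdf3, Nol10, Adgrg1, Plxdc2, Nav3, Tmem106c, Ncapd3 and Pmp22, with log2 ratios from 2.95 to 3.61 that rest on 4 to 12 UMIs in 21 cycling cells. Adgrg1 and Plxdc2, of these, were also among the leading genes of microglial clusters. In CD169-DTR macrophages Adgrg1 was at 0.57 (-4.78 to 3.16) and Plxdc2 at -0.25 (-5.58 to 2.30), so neither could be told from equal levels there.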

How the data were processed

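The 2 libraries were 10x Genomics 3' single-cell RNA libraries. The authors deposited raw UMI counts of every barcode, per the file headers from Cell Ranger 3.1.0, with mm10 named in the submitters' processing notes. From these counts, those barcodes were kept that reached 1000 UMIs and held no more than 17% mitochondrial UMIs. The mitochondrial limit is that of the study's methods, and the UMI minimum is higher than theirs. Cells were integrated and clustered with Seurat 5.3.0 in R 4.3.3 (scale factor 10000, 2000 variable features, 50 integration dimensions, 30 dimensions for clustering, resolution 1). Listed cell cycle genes and histones were kept out of the variable features, but cycle genes on no list, such as Aspm, were not. Clusters were named by markers, and the thresholds of that naming were set after the data were seen. Doublets were kept, and an alternative removed the highest 8% of Scrublet scores (scanpy 1.11.5). The members and lists were chosen with earlier results of these data known.

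Every class was summed per library and scaled to UMIs per 1e+06 UMIs (CPM). Ratios have exact conditional 95% intervals, shares Clopper-Pearson intervals and share ratios intervals on the log scale. All cover counting error only, and a share of 0 was given the limit of 3 counts. A gene was past the fold when its ratio was at least 1.5 with at least 20 UMIs in all, or 50 UMIs for cycling against other cells, where each cell was thinned to 3000 UMIs. No test was made, with 1 library per group. The named genes were, in microglia and macrophages, the 5 mitotic and the 5 replication members with most UMIs and the 3 highest and 3 lowest ratios of WT over CD169-DTR (at least 50 UMIs), together with Mki67, Top2a, Pcna, Mcm5 and Stmn1, and the 10 unlisted genes with the highest ratio in cycling cells. Genes of the state and G1 lists named with values were picked as examples after their values were seen. The procedures were run on simulated counts. From counting error alone, 3.60% of unchanged genes were past 1.5-fold in microglia, 4.86% in macrophages and 10.2% in T cells. Simulated cycling cells were drawn from the profile of called cells, so their recovery cannot show whether the call is right. The alternatives on minimum UMIs and mitochondrial share filtered cells within the existing clusters. Promoters came from RefSeq (GRCm38.p6), and those of Ccna2, Aurkb, Pbk, Tpx2, Mcm4 and Stmn1 were not analysed here. Calculations used Python 3.11.15, numpy 2.4.6, scipy 1.17.1 and pandas 2.3.3.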

Additional observations from a re-analysis of the deposited data

Results flagged for a closer look

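WT over CD169-DTR, the log2 ratio of the cycling share was 1.33 in T cells and -1.10 in macrophages, in opposite directions. The difference between these ratios was not tested, since each rests on 1 library per group.

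Barcodes of 10 to 100 UMIs, which belong to no cell class, held the mitotic members at 469 CPM in WT and 859 CPM in CD169-DTR, above the 42.1 and 70.1 CPM of choroid plexus cells. An unnamed cluster led by the mast cell genes Mcpt2 and Cma1 had 9 cycling cells of 24 in WT, 37.5% (18.8 to 59.4%), and none of 8 in CD169-DTR, which allows a share of up to 37.5%.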

How the results depend on the processing

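The alternatives on the hemoglobin-led cluster, on unnamed clusters at resolution 0.5, on another random thinning and on members without doublets, cycling cells or the 5 top cells were chosen after seeing the data. The log2 ratio of the cycling share of WT over CD169-DTR ran from -0.16 to 0.06 in microglia, from -2.62 to -0.46 in macrophages and from 1.09 to 1.75 in T cells over 15 alternatives, and from -1.32 to 0.92 in NK cells over 14, since clustering with all genes gave no NK value. The interval covered 0 in 5 alternatives for macrophages and in 3 for T cells. Thinning to 1000 UMIs gave -2.62 in macrophages, a WT microglia over macrophage ratio of 5.75, and 34 other mitotic genes past the fold in cycling WT microglia instead of 60. That ratio was 3.14 with 2 mitotic or 4 replication UMIs, 5.02 without high doublet scores, 4.66 clustered with all genes and 5.06 without cells holding markers of another class, where it was 3.98 in CD169-DTR. The mitotic-only share of cycling microglia in WT and CD169-DTR was 88.5% and 88.6% at 1000 UMIs, 31.4% and 35.8% at 5000 UMIs, 38.8% and 43.4% with 2 mitotic or 4 replication UMIs, and 66.0% and 69.9% with 5 or 8. In macrophages 13 members were past 2-fold, 12 past 1.5-fold as means of thinned cells and 15 without the cycling cells. In T cells 15 were past it as thinned means and 5 without the cycling cells, and in microglia 2 without the cycling cells. Members below the minimum UMIs of a gene at a setting were not counted. No share of all genes at these settings is given, so these counts do not set the members apart from other genes. The direction turned for the homeostatic genes of cycling WT microglia at resolution 0.5 (0.085), for Mcm3 in macrophages as thinned means (0.060), and without the cycling cells for Pclaf in microglia (0.17) and Mki67 in macrophages (0.25). The causes were not tested. Median-ratio scaling moved the median of all genes by 0.11 in T cells. No paired analysis was possible because each group has 1 library. Depth limits the shares of the smaller classes, and no value carries the spread between mice.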
